A study of Rattus norvegicus with 14 samples.

Results

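The genes described here encode the mitochondrial respiratory chain and ATP synthase, measured in colonocytes (colonic epithelial cells) of rats on 1 of 2 diets, a high-protein diet (HPD) or a normal-protein diet (NPD). They were chosen by name from the array design, as every non-control probe whose gene symbol begins with Nduf followed by a subunit letter and a number, Uqcr, Cox4 to Cox8 or Atp5, or is Sdha, Sdhb, Sdhc or Sdhd. The rule found 84 of the 26276 gene names on the array, with 103 probes, and each gene was represented by its brightest probe. By name, 38 genes fell to complex I, 4 to complex II, 7 to complex III, 17 to complex IV and 18 to complex V.

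Male Wistar rats ate either diet freely for 15 days, with 14% of energy from protein in the NPD and 55% in the HPD. The diets had the same energy content, and the milk protein of the HPD took the place of corn starch and sucrose, so that more protein and less carbohydrate cannot be told apart. The rats arrived at 5 to 6 weeks of age and had a common standard diet for 1 week before the experiment. Epithelial cells were loosened by perfusing the colon with EDTA and tapped off, and the RNA of 7 rats per diet was hybridised to 14 one-colour Agilent arrays. Signals are given on the log2 scale relative to the median of the array, differences are HPD minus NPD, and a gene was called where limma's adjusted p (q-value) was below 0.1.

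The respiratory chain is a series of protein complexes in the inner mitochondrial membrane. Complex I takes electrons from NADH and complex II from succinate, ubiquinone carries them to complex III, cytochrome c carries them on to complex IV, and complex IV passes them to oxygen. The protons pumped by complexes I, III and IV drive ATP synthase, also called complex V. Colonocytes are known for a high use of oxygen, because they oxidise butyrate made by bacteria in the lumen, and hydrogen sulfide, a product of protein breakdown in the lumen, is known to inhibit complex IV.

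The 14 arrays correlated with each other at 0.970 to 0.992 (Pearson's r across probes), and their median signals were 66.0 to 100.3 in the NPD and 53.5 to 75.1 in the HPD. They lay on 2 slides, each scanned once: 4 NPD and 3 HPD arrays were on slide 1, with the other 3 NPD and 4 HPD arrays on slide 2. Of all probes, 40.1% differed between the slides at a q-value below 0.1 with diet in the model, and 63 of the 84 genes did. The median difference between the diets over all 30367 probes was 0.11 in place of 0, and it varied with signal. By decile of mean signal it was 0.24 in the dimmest, -0.036 in decile 7 and 0.13 in the brightest, which held 72 of the 84 genes. Over the 18384 probes well above background in all 7 arrays of either diet it was 0.048. Differences are to be read relative to probes of similar signal, not to 0.11 alone. All 12 colonocyte and epithelial markers, with Epcam, Krt8, Cdh1 and Car1 among them, had signals well above background on all arrays. Of 7 immune markers, the B-cell gene Cd79a and the T-cell gene Cd3e were well above background on 4 and 3 arrays. None of the 40 markers of epithelial, goblet, enteroendocrine, immune, stromal and red blood cells was called.

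The probe is what each value rests on, and those of 6 genes on which the results below turn are shown first, 5′ to 3′, at the positions the array design gives on the rat build rn4. All are 60 bases long. Capitals mark the whole codons of the reading frame that held no stop codon, where exactly 1 of the 3 frames was free of stops, and the other probes are in lower case throughout.
Atp5b (chr7:1378451-1378510, plus strand): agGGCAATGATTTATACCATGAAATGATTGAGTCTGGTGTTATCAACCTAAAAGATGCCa
Atp5c1 (chr17:79755732-79756239, plus strand): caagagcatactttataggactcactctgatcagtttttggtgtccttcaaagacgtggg
Ndufa9 (chr4:163221522-163223453, minus strand): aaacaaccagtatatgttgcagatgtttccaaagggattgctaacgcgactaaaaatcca
Ndufs8 (chr1:206435873-206436371, minus strand): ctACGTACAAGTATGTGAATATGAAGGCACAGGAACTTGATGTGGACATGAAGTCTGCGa
Uqcrfs1 (chr17:40433660-40433719, plus strand): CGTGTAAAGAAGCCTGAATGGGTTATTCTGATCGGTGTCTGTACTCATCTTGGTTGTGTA
Uqcrc1 (chr8:113965183-113965352, plus strand): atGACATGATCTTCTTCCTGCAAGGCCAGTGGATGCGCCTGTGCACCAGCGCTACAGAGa
The probes of Atp5b and Uqcrfs1 mapped to 1 unbroken stretch of the genome. Those of Atp5c1, Ndufa9, Ndufs8 and Uqcrc1 spanned 508, 1932, 499 and 170 bases, so they crossed at least 1 gap between exons.

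No gene of the respiratory chain or ATP synthase was called at a q-value below 0.1, where 0.056% of all probes were called, and the lowest q-value among the 84 genes was 0.417 (limma). Before adjustment, 6 genes had a limma p under 0.05, or 7.14%, against 11.4% of all probes: Atp5b, Atp5c1, Atp5sl and Ndufa9 were lower in the HPD and Uqcrq and Cox4i2 were higher. The difference was above 0 in 69 genes and below 0 in 15, and it ran from -0.48 for Atp5b to 0.46 for Cox6b2, or from 0.719-fold to 1.38-fold. No gene separated all 7 HPD arrays from all 7 NPD arrays, as 0.273% of all probes did. The 95% interval of the difference lay within a 2-fold change either way in 82 genes and within a 1.5-fold change in 42, so changes beyond those sizes lay outside the interval. The 2 genes with a wider interval were Cox6a2 and Cox6b2.

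**Figure D1:**
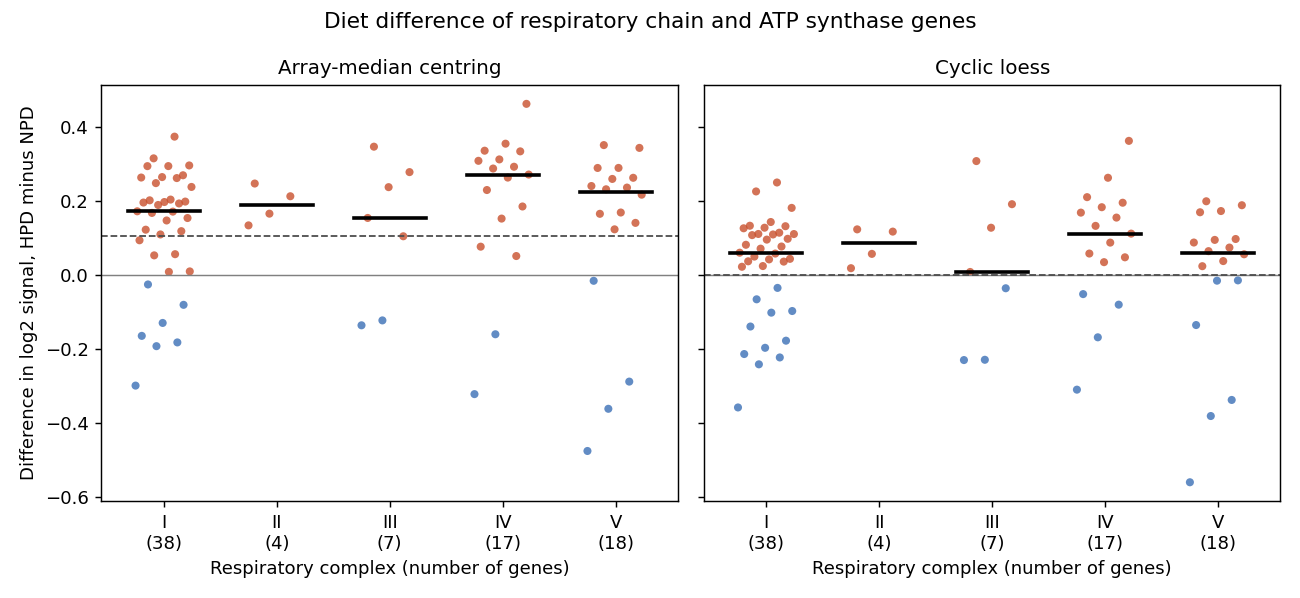
Difference in log2 signal between the HPD and the NPD (vertical axis) for each of the 84 genes, by complex, with values centred on the array median (left) or normalized by cyclic loess (right); red points are above 0, blue points below 0, thick bars are the median of each complex and the dashed line is the median of all probes. Most genes sit in a band just above the median of all probes. The band moves towards 0 with cyclic loess while the lower genes stay below 0. From the lowest up, complex V starts with Atp5b, Atp5sl and Atp5c1 on the left, and with Atp5b, Atp5c1 and Atp5sl on the right.

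The median difference over the 84 genes was 0.19, against 0.11 over all probes. By complex it was 0.17 in complex I, 0.19 in complex II, 0.15 in complex III, 0.27 in complex IV and 0.22 in complex V. This positive median depended on the scaling of the arrays. With cyclic loess, which evens out differences between arrays at each signal strength, the median over the genes was 0.06, with all probes at 0.00067, and 24 genes were below 0. In the authors' normalized table with slide as a block the median over the genes was 0.0061, below the 0.034 of all rows. With normexp background correction it was 0.050, below the 0.070 of all probes. Of the 84 genes, 72 lay in the top decile of all probes by mean signal. The median over all probes of that decile was 0.13 with median centring, 0.014 with cyclic loess and -0.021 with normexp. With median centring the median over the genes was 0.13 with slide as a block, 0.15 within slide 1 and 0.12 within slide 2. Without HPD replicate 7, the array with the lowest median signal, it was 0.10.

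Most of the variation of these genes was shared between them. On each array, the deviation of every gene from its own mean over the arrays was taken, and the median over the 84 genes described the array. Among the NPD arrays this median ran from -0.43 to 0.16 and among the HPD arrays from -0.31 to 0.58, so the diets overlapped widely. All arrays of slide 1 lay between -0.43 and 0.0031 and those of slide 2 between -0.024 and 0.58. The 3 NPD arrays of slide 2 were within 0.13 to 0.16, and HPD replicates 6 and 7 stood above all others at 0.39 and 0.58. The first principal component held 81.3% of the variance of the 83 genes with a value on every array, and 60.9% after cyclic loess. All probes in the top decile by mean signal, where 72 of the 84 genes lay, had array medians of -0.34 to 0.18 in the NPD and -0.34 to 0.47 in the HPD. After cyclic loess the array medians of the 84 genes ran from -0.092 to 0.024 in the NPD and from -0.0089 to 0.081 in the HPD, with means of -0.035 ± 0.037 and 0.037 ± 0.040 (SD, n = 7 each).

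**Figure D2:**
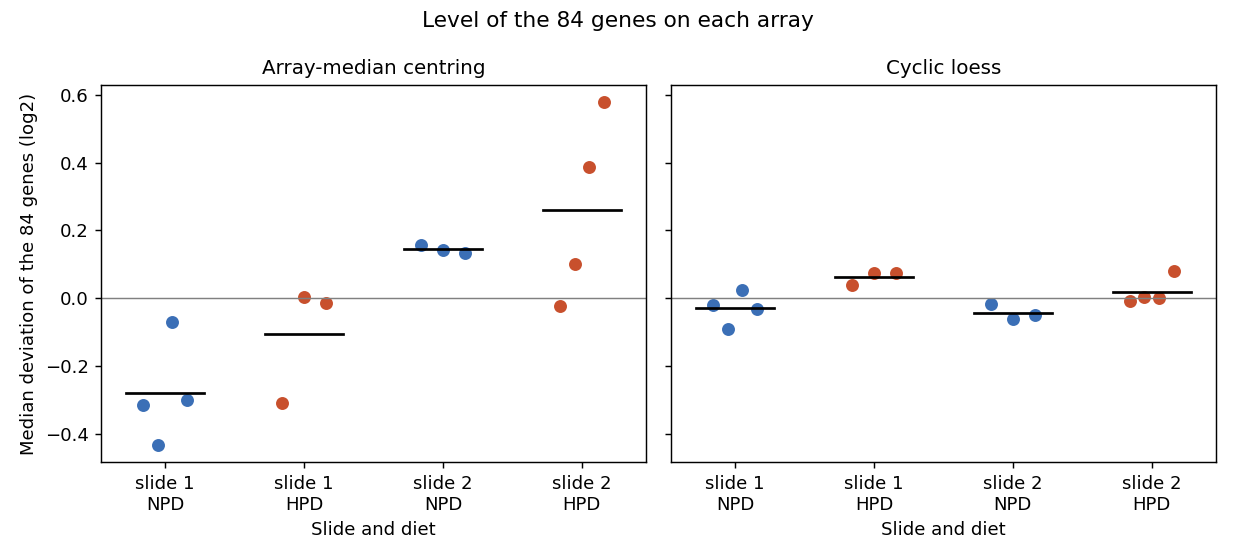
Median over the 84 genes of the deviation from each gene's mean (vertical axis, log2), 1 point per array, by slide and diet, with values centred on the array median (left) or normalized by cyclic loess (right); bars are group means. On the left the slide 2 arrays lie above nearly all slide 1 arrays and reach 0.58, and on the right all points lie between -0.092 and 0.081.

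The difference between the diets also changed with the strength of the signal. Across the 83 genes whose brightest probe was well above background on every array, Spearman's rho between the difference and the mean signal was 0.54, against 0.13 across the 17453 such probes of the array; genes on shared arrays are not independent replicates. In the top decile of all probes by mean signal the median difference was 0.13 and 23.7% of probes were below 0, and 8 of the 72 genes there were below 0 with a median of 0.21. The decile just below it held 4 of the genes, Ndufa8, Ndufa9, Ndufa11 and Ndufs8, and all 4 were lower in the HPD (median -0.19), where 34.5% of all probes were. With cyclic loess, rho over the 83 genes was 0.22.

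**Figure D3:**
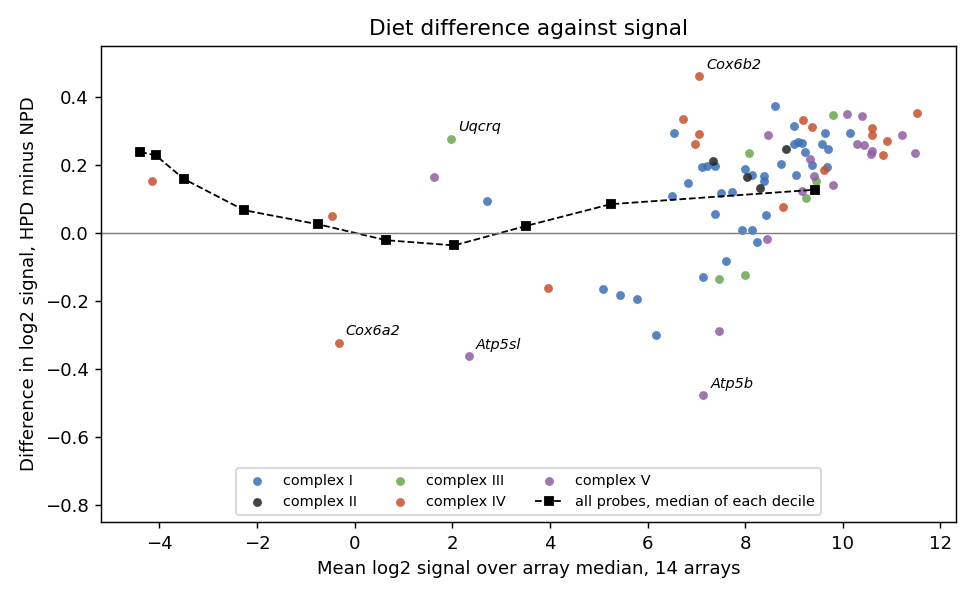
Difference in log2 signal between the HPD and the NPD (vertical axis) against the mean log2 signal over the 14 arrays (horizontal axis), 1 point per gene, coloured by complex; squares joined by a dashed line give the median of all probes in each decile of mean signal, drawn at the middle of its range. Of the 72 genes in the brightest decile 64 are above 0, and all 4 genes of the decile below it lie under the line.

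Complex V makes ATP as protons flow back through its membrane part, Fo, and turn the shaft of its catalytic head, F1. Atp5b encodes the β subunit of F1, which carries the catalytic sites. Its signal was 6.94, 7.48 and 7.90 (lowest, median and highest) in the NPD and 6.40, 6.83 and 7.48 in the HPD. It differed between the slides as well as between the diets: on slide 1 the NPD arrays were at 7.48 to 7.90 and the HPD arrays at 7.19 to 7.48, and on slide 2 they were at 6.94 to 7.06 and 6.40 to 6.83. Within each slide every HPD array was below every NPD array, though by little for the nearest pair on slide 1. The difference was -0.48 (SE 0.21, 95% interval -0.91 to -0.038), or 0.719-fold, and 6 of the 7 HPD arrays lay below the NPD mean. It had an unadjusted limma p of 0.0351 and a q-value of 0.425. The exact two-sided permutation p was 0.0484 over all arrays and 0.00163 within slides. Permutation p-values here and below are unadjusted, and both were computed for each of the 84 genes but not for all probes. Within slides they were under 0.05 for 7 genes below 0 and 7 genes above 0. Over all arrays they were under 0.05 for 7 genes below 0 and 2 genes above 0.

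Atp5c1 encodes the γ subunit, the shaft that turns inside F1. Its signal was 7.36, 7.66 and 7.79 in the NPD and 7.00, 7.38 and 7.74 in the HPD, so 1 HPD array lay among the higher NPD arrays and the other 6 lay below 5 of the 7 NPD arrays. The difference was -0.29 (SE 0.13, 95% interval -0.57 to -0.011), or 0.819-fold, with a q-value of 0.431 (limma) and an exact permutation p of 0.0355 over all arrays. Of the other F1 subunits, Atp5a1 and Atp5e were above 0 and Atp5d was just below it. Atp5a1, the α subunit that pairs with the β subunit, was at 11.08 to 11.61 in the NPD and 11.14 to 12.09 in the HPD (difference 0.24, SE 0.15). Atp5e, the ε subunit, differed by 0.24 (SE 0.17) and Atp5d, the δ subunit, by -0.016 (SE 0.11, 95% interval -0.25 to 0.22). The 10 genes of the membrane part and the stalk had differences of 0.12 to 0.35, with Atp5f1, a stalk subunit, the highest at 0.35 (SE 0.18). Atp5g1, Atp5g2 and Atp5g3, which encode the same ring subunit of Fo in different precursors, differed by 0.26, 0.23 and 0.12 (SE 0.17, 0.18 and 0.15).

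Atp5sl bears the Atp5 name but is no subunit of the enzyme; its product, now called Dmac2, helps to assemble complex I. It had the smallest unadjusted p of the 84 genes, 0.0168 (limma; q-value 0.417). Its signal was 2.13, 2.47 and 2.84 in the NPD and 1.87, 2.05 and 2.46 in the HPD, and all 7 HPD arrays lay below the NPD mean. The difference was -0.36 (SE 0.13), or 0.778-fold, and the exact permutation p was 0.0122 over all arrays and 0.000816 within slides. With Atp5b it was 1 of 2 genes in which every HPD array lay below every NPD array on each slide, a comparison made after the values were seen. That is 2.38% of the 84 genes, where 0.629% of all probes did so. No gene was separated in the other direction on both slides, as 0.481% of all probes were.

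**Figure D4:**
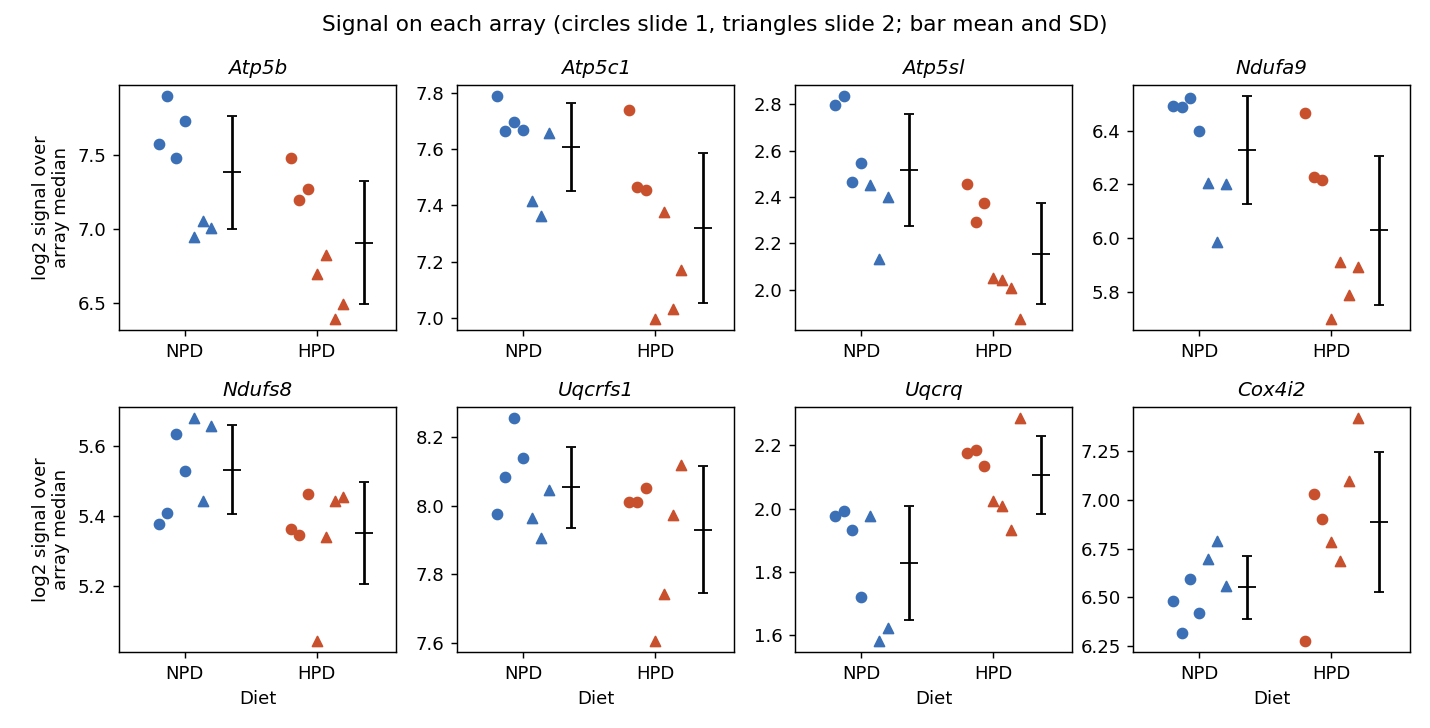
Log2 signal over the array median (vertical axes, a scale per gene) for 8 genes on each of the 7 NPD (blue) and 7 HPD (red) arrays; circles are slide 1, triangles slide 2, and the bar gives the mean and SD. Atp5b, Atp5c1, Atp5sl and Ndufa9 lie lower on slide 2 and lower in the HPD on both slides, Ndufs8 and Uqcrfs1 lie slightly lower in the HPD, and Uqcrq and Cox4i2 lie higher.

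Complex I is built from a conserved core that carries the flavin and the iron-sulfur clusters and from accessory subunits around it. Ndufv1, which binds NADH, was at 8.49, 8.95 and 9.19 in the NPD and 8.64, 9.02 and 9.68 in the HPD (difference 0.26, SE 0.17). Ndufv2, which carries an iron-sulfur cluster beside it, differed by 0.053 (SE 0.096, 95% interval -0.15 to 0.26). Ndufs1, with several clusters, differed by 0.19 (SE 0.15). Ndufs7, which lies at the site where ubiquinone is reduced, differed by 0.12 (SE 0.17). With cyclic loess the difference of Ndufv2 was below 0, at -0.066.

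Ndufs8, a core subunit with a pair of iron-sulfur clusters, was at 5.37, 5.53 and 5.68 in the NPD and 5.04, 5.36 and 5.46 in the HPD. All 7 HPD arrays lay below the NPD mean, though the ranges overlapped. The difference was -0.18 (SE 0.10), or 0.881-fold, with a q-value of 0.473 (limma) and an exact permutation p of 0.0245. Ndufs3, a core subunit of the same arm, differed by -0.13 (SE 0.10), with 6 of 7 HPD arrays below the NPD mean.

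Among the accessory subunits of complex I, Ndufa9 had the lowest difference and the smallest unadjusted p, 0.0495 (limma; q-value 0.438). Its signal was 5.98, 6.40 and 6.52 in the NPD and 5.70, 5.91 and 6.47 in the HPD, a difference of -0.30 (SE 0.14) or 0.813-fold, with -0.17 within slide 1 and -0.31 within slide 2. Ndufa11, a membrane-arm subunit, was at 5.70, 5.83 and 6.07 in the NPD and 5.42, 5.73 and 5.82 in the HPD. Its difference was -0.19 (SE 0.10, q-value 0.46 by limma), and as in Ndufs8 no HPD array reached the NPD mean. Ndufa8 differed by -0.16 (SE 0.097), with an exact permutation p of 0.0233. In the opposite direction the highest difference was that of Ndufa3, at 7.96, 8.49 and 8.93 in the NPD and 8.25, 8.64 and 9.42 in the HPD (difference 0.37, SE 0.21). Ndufa10 differed by 0.29 (SE 0.15, q-value 0.455 by limma). Ndufa4, named for complex I and now counted with complex IV, differed by 0.20 (SE 0.18).

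Complex II is succinate dehydrogenase, the enzyme that the respiratory chain shares with the citric acid cycle. Its 4 genes had differences of 0.13 to 0.25, and none had an unadjusted limma p under 0.05. Sdha, the flavin subunit that oxidises succinate, was at 8.12, 8.25 and 8.41 in the NPD and 8.15, 8.36 and 8.61 in the HPD, a difference of 0.13 (SE 0.10, 95% interval -0.084 to 0.35). Sdhb, the iron-sulfur subunit, differed by 0.17 (SE 0.15). The membrane anchors Sdhc and Sdhd differed by 0.21 and 0.25 (SE 0.18 and 0.16). With cyclic loess the 4 differences had a median of 0.087.

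Complex III passes electrons from ubiquinol to cytochrome c. Uqcrq, a small subunit, had the smallest unadjusted p of the complex, 0.0204 (limma; q-value 0.417). Its signal was 1.58, 1.93 and 1.99 in the NPD and 1.93, 2.13 and 2.29 in the HPD, and all 7 HPD arrays lay above the NPD mean with the lowest of them among the upper NPD arrays. The difference was 0.28 (SE 0.11), or 1.21-fold, and the exact permutation p was 0.00524 over all arrays and 0.00163 within slides. Uqcrfs1, the Rieske iron-sulfur protein at the catalytic site, was at 7.90, 8.05 and 8.25 in the NPD and 7.61, 8.01 and 8.12 in the HPD (difference -0.12, SE 0.11). Uqcrc1 and Uqcrc2, the large core proteins, differed by -0.14 (SE 0.12) and 0.24 (SE 0.14). Uqcrb, a small subunit, had the highest difference of the complex, 0.35 (SE 0.21, q-value 0.494 by limma).

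Complex IV, cytochrome c oxidase, has several subunits with paired isoforms that differ between tissues. Cox4i2, an isoform of subunit 4 known from lung and from low oxygen, had the smallest unadjusted p of the complex, 0.0465 (limma; q-value 0.437). Its signal was 6.32, 6.56 and 6.79 in the NPD and 6.27, 6.90 and 7.42 in the HPD, a difference of 0.34 (SE 0.15) or 1.26-fold. HPD replicate 1 was below every NPD array, and 6 of the 7 HPD arrays were above the NPD mean. The common isoform Cox4i1 was at 10.34, 10.72 and 11.07 in the NPD and 10.32, 10.96 and 11.42 in the HPD (difference 0.23, SE 0.18). Cox5a and Cox5b, further subunits of the complex, differed by 0.18 and 0.29 (SE 0.15 and 0.20).

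The heart and muscle isoform Cox6a2 was at -0.94 to 0.60 in the NPD and -1.91 to 1.52 in the HPD (difference -0.32, SE 0.47), while Cox6a1, the isoform of most other tissues, differed by 0.35 (SE 0.20). Cox6b2, known from testis, had the highest difference of all the genes, 0.46 (SE 0.27, 95% interval -0.11 to 1.03). HPD replicate 2 had no value for it because its spot was marked as an outlier, and the fit left that array out. Within slide 1 its difference was 0.010 and within slide 2 it was 0.46. Cox7a2 and Cox7b differed by 0.31 (SE 0.17) and 0.33 (SE 0.18), and Cox6c-ps1, a gene named as a pseudogene of Cox6c, by 0.29 (SE 0.16). Its signal cannot be separated from that of Cox6c where the sequences match. Cox8a differed by 0.27 (SE 0.18) and Cox8b, a muscle isoform, by 0.051 (SE 0.17). Cox8c, known from testis, was well above background on 1 of the 14 arrays so no difference can be read from it.

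The 15 genes below 0 were Ndufa8, Ndufa9, Ndufa11, Ndufb7, Ndufb11, Ndufs3, Ndufs8, Uqcrc1, Uqcrfs1, Cox4nb, Cox6a2, Atp5b, Atp5c1, Atp5d and Atp5sl. Cox4nb is a neighbour of Cox4i1 and encodes no subunit of complex IV. All 15 were also below 0 with cyclic loess, with slide as a block and in the authors' table with slide as a block, and 12 were below 0 within both slides. Beside them, 62 genes were above 0 within both slides. The alternatives use the same arrays on which the 15 genes were found below 0. With cyclic loess, with slide as a block and in the authors' table, the median over the 84 genes was also lower. The shared sign is therefore not independent evidence. Under some other ways of handling the data, genes of this group passed the threshold. With normexp background correction 11 genes were called and all were lower in the HPD, or 13.1% of the 84, where 6.15% of all probes were called lower. In the authors' table, adjusted for slide, 8 genes passed as lower, or 9.52%, where 6.5% of all rows were. These 8 were Atp5b, Atp5c1, Atp5sl, Ndufa8, Ndufa9, Ndufa11, Ndufs8 and Uqcrfs1, and all 8 were among the 11 called with normexp. No gene was called higher in either, where 10.8% of all probes with normexp and 3.98% of all rows of the table were. With normexp and slide as a block, an alternative added after the values were seen, 12 genes were called lower, or 14.3%, where 10.6% of all probes were. No gene was called higher in that fit, which called 8479 of all 30367 probes in either direction.

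Where a gene had more than 1 probe, the probes did not always share a direction. Of 17 such genes, 15 had at least 2 probes well above background on every array, and in 5 of these the differences were on both sides of 0. Uqcr11, a small subunit of complex III, had 3 probes with differences of 0.10, 0.25 and -0.10 (SE 0.099, 0.19 and 0.099). Ndufv3, an accessory subunit of complex I, had 0.27, 0.20 and -0.092 (SE 0.17, 0.13 and 0.10). The brighter probe of Atp5j2, a subunit of Fo, differed by 0.34 (SE 0.19) and the dimmer by -0.013 (SE 0.10). All of these differences were within 2 SE of 0.

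The genes around the chain showed no call either. With normexp 7 of these 77 related genes were called, or 9.09%, where 16.9% of all probes were, and in the authors' table adjusted for slide 5 were, or 6.49%, where 10.5% of all rows were. Of 17 electron carriers and subunits outside the naming rule, 14 were above 0 and 3 below, with a median of 0.23. Etfdh, which passes electrons from fatty acid oxidation to ubiquinone, was at 4.38 ± 0.11 in the NPD and 4.68 ± 0.17 in the HPD (SD, n = 7), a difference of 0.31 that did not pass adjustment (limma q-value 0.417). Usmg5 and Atpif1, a small subunit and the inhibitor of ATP synthase, differed by 0.36 and 0.41 (SE 0.21 and 0.24). Of the 43 assembly factors listed, 26 were on the array by symbol and 8 of them were below 0 (median 0.15). Uqcc and Bcs1l, which help to assemble complex III, differed by -0.39 and -0.55 (SE 0.14 and 0.22), and Coa5, named for complex IV assembly, by -0.49 (SE 0.18). Of the 19 regulators of mitochondrial gene expression, 8 were below 0 (median 0.054). The mitochondrial DNA polymerase Polg was the one among them with an unadjusted limma p under 0.05, at a difference of -0.49 (SE 0.19). Its accessory subunit Polg2 differed by -0.24 (SE 0.12) and the helicase Peo1 by 0.22 (SE 0.12). Of 15 genes of uncoupling and import, 5 were below 0 (median 0.076), and the prohibitin Phb2, a scaffold of the inner membrane, differed by -0.41 (SE 0.14, limma q-value 0.417). The import genes Tomm70a and Tomm40 differed by 0.20 and -0.16 (SE 0.16 and 0.13). The 13 subunits encoded in mitochondrial DNA were not found by symbol and were not analysed here.

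Other cell types in the preparation were read from their markers. The summed relative signal of the 12 epithelial markers was 6295 to 7257 in the NPD and 5584 to 8681 in the HPD. The 5 goblet markers summed to 4318 to 6486 and 3440 to 8740, the 4 enteroendocrine markers to 543 to 1128 and 401 to 1327, and the 7 immune markers to 88.9 to 121 and 66.3 to 98.0. The 9 stromal markers summed to 12.7 to 27.4 and 14.1 to 20.9, and the 3 red blood cell markers to 36.1 to 61.0 and 45.7 to 151. Of the 9 stromal markers 6 were well above background on all 14 arrays, Actg2 on 12, and Tagln and Col3a1 on 1 each. An unadjusted limma p under 0.05 was found for 7 of the 40 markers, or 17.5%, against 11.4% of all probes. Those above 0 were Hba-a2 (0.52, SE 0.17), Col1a1 (0.35, SE 0.11) and Col3a1 (0.61, SE 0.18), and those below 0 were Krt19 (-0.36, SE 0.14), Clca1 (-0.56, SE 0.25), Lyz2 (-0.56, SE 0.24) and Myh11 (-0.48, SE 0.20). Their part in the differences above was not tested. In bulk RNA, fewer cells of a type and less RNA per cell cannot be told apart.

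The promoters of these genes are known for sites of the nuclear respiratory factors, and the windows below were searched for 3 motifs on both strands. All 84 genes matched a RefSeq gene, and 71 had a promoter of 300 bases (250 before and 50 after the start) in RefSeq's annotation of the GRCr8 build. The motif of NRF1, searched as GCGC, then A and any base, then GCGC, was in 14 of the 71, or 19.7%, and in 4.71% of all 27457 promoters. CCGGAAG, an ETS motif that GABPA (NRF2) binds, was in 21, or 29.6%, against 9.22%. The letters AAGATGGCG, a form of the YY1 motif, were in 10, or 14.1%, against 1.93%. No motif contains another. The member promoters had a median GC content of 56.3% and all promoters 52.3%, and the promoter of Atp5b held none of the 3 motifs in this window. The windows of 4 genes are shown, from before the start of transcription, with 1 match in capitals, because their genes lie on both sides of 0. The window of Ndufa11 holds a second NRF1 match that overlaps the first and is left in lower case.
Ndufa11, difference -0.19 (chr9:1637492-1637551, plus strand, NRF1): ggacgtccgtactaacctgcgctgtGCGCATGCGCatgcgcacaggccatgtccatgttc
Uqcrc1, difference -0.14 (chr8:118468134-118468193, plus strand, NRF1, matched on the other strand): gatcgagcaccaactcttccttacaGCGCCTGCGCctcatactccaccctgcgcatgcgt
Sdha, difference 0.13 (chr1:30764439-30764498, plus strand, NRF1): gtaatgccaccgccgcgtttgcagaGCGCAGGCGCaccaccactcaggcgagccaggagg
Uqcrc2, difference 0.24 (chr1:184599098-184599157, plus strand, GABPA, matched on the other strand): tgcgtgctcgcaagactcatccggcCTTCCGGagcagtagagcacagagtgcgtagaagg
The shares describe these letters in these windows, and no relation to the difference between the diets was tested.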

How the data were processed

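RNA of colonocytes of 14 rats (7 per diet, group and replicate from the sample labels) was measured on one-colour Agilent arrays. For each array the authors deposited its scanner file, written by Agilent Feature Extraction 10.7.3.1, in which every spot has a background-subtracted intensity on a linear scale. They also deposited a table of log2 values per gene name, centred by array, with 2 outlier arrays removed by the authors and not analysed here. No column belonged to other samples (0).

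Outlier-marked spots and controls were removed, the processed signal was log2-transformed, the spots of a probe were averaged and each array was centred on its median over 30367 probes. HPD and NPD were then contrasted in a linear model with no other term (limma 3.58.1, R 4.3.3), with p-values adjusted by Benjamini-Hochberg over all probes. A gene stands for its brightest probe, and a probe counted as well above background on an array where at least 50% of its spots were marked so. Exact two-sided permutation tests used the 3432 splits of the arrays, or the 1225 that keep each slide's numbers, with Python 3.11.15 and scipy 1.17.1. The method was tested on simulated data.

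The members and lists were chosen with earlier results of these data known. Genes named in the text were every called gene, every gene without overlap, the 3 with the smallest p and the highest and lowest difference per complex, and fixed core subunits and isoforms, of which 1 is not reported here; of the related lists, up to 3 with the smallest p. Other genes, such as Ndufa8, Ndufa10, Uqcr11, Ndufv3, Atp5j2 and the further genes below 0, were named after their values were seen. Other scalings, background corrections, blocks, probe rules and the loss of each array were tried. The number of arrays limits the precision. The p-values measure the spread between these rats and their arrays, and without slide in the model this includes the spread between slides.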

Additional observations from a re-analysis of the deposited data

Results flagged for a closer look

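Ndufs8, a core subunit of complex I, was at 5.04 in HPD replicate 4 (log2 over the array median), the lowest of the 7 HPD arrays, and the next lowest was at 5.34. This gap took 0.707 of the range of the group. It was the 1 case found in 88 groups of up to 7 arrays, fewer than the about 1 in 20 that chance gives.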

How the results depend on the processing

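Of 43 genes named by the rule, 32 kept the sign of their difference under every alternative run, and 41 of 1332 recomputed gene differences changed sign. No member was called under any alternative except normexp background correction (11 genes), the deposited table adjusted for slide (8) and normexp with slide as a block (12). All of these members were lower. In the last fit they were 14.3%, where 10.6% of all probes were called lower and 8479 of all 30367 in either direction. The cause was not tested. Alternatives that join cyclic loess, quantile normalization, the 75th percentile or normexp with slide as a block were chosen after seeing the data. Of 77 related genes, 7 were called under normexp, or 9.09% against 16.9% of all probes, and 5 in the deposited table adjusted for slide, or 6.49% against 10.5% of all rows.

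The median of complex III, 0.15 with median centring, was 0.0077 with cyclic loess, 0.010 with normexp, 0.010 in the deposited table, 0.0049 there with slide as a block and -0.011 with normexp and slide as a block.

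With normexp, Ndufs7 was at -0.018, Ndufv2 at -0.10, Sdha at -0.025 and Atp5g3 at -0.026. With normexp and slide as a block, Ndufa4 was at -0.0094, Ndufs7 at -0.067, Ndufv2 at -0.094, Sdha at -0.028, Sdhc at -0.0018, Sdhb at -0.028 and Atp5g3 at -0.065. In the deposited table, Ndufs7 was at -0.017, Ndufv2 at -0.11, Sdha at -0.025 and Atp5g3 at -0.046. There with slide as a block, Ndufs7 was at -0.049, Ndufv2 at -0.088, Sdha at -0.0095, Sdhb at -0.0073 and Atp5g3 at -0.053. With cyclic loess, Ndufv2 was at -0.066, Cox8c at -0.081 and Atp5g3 at -0.016. With slide added to it, Ndufv2 was at -0.013, Cox8c at -0.046 and Atp5g3 at -0.0012. With quantile normalization, Ndufv2 was at -0.036, Cox8c at -0.081, Atp5a1 at -0.044 and Atp5g3 at -0.0078. With slide added to it, Cox8c was at -0.043 and Atp5a1 at -0.024. With mean and median pixel signals, Ndufv2 was at -0.059 and -0.067. The mean of all probes gave Atp5d 0.32. That mean takes in its dimmer probe, well above background on 2 of the 14 arrays, at 0.66 (SE 0.41).

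Leaving out 1 array at a time kept 0 calls. The median over the 84 genes was then 0.10 to 0.27, in complex I 0.092 to 0.24, in complex II 0.11 to 0.26, in complex III 0.089 to 0.19, in complex IV 0.18 to 0.37 and in complex V 0.14 to 0.31. Cox8b ran from -0.019 to 0.13 and Atp5d from -0.054 to 0.033. Without HPD replicate 7 the median over the genes was 0.10, against 0.19 with all arrays.

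The labels do not say that a replicate number marks shared rats or days, and the numbers were not taken to pair the arrays because not every pair's deviations correlated above 0.1. The 6 pairs that did (up to 0.39) each lay on the same slide, the remaining pair (-0.090) was split across slides, and in 1 of 7 pairs the best partner shared the number. With the replicate block, 0 members and 8 of all probes were called, against 17 without it.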
